A study of Mus musculus with 3 samples.

Results

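The genes described here encode the enzymes and regulators of sterol and fatty acid synthesis. They are 32 named genes, chosen as a fixed list of symbols out of the 32285 genes in the count matrices, and all 32 had a row there. Enzymes of sterol synthesis form the largest block, 19 in all, with 8 on the mevalonate steps and 11 from squalene to cholesterol. The others are 7 regulators or carriers and 6 enzymes that make or modify fatty acids. Single-cell RNA sequencing was run on lungs of mice with EGFR-mutant lung adenocarcinoma, a lung tumour driven here by a doxycycline-induced EGFRL858R transgene under a Ccsp-rtTA activator. The question was how the tumour-bearing lung, and the loss of the nuclear receptor PPARg in macrophages, altered the cells of the lung. Equal proportions of 4 sorted populations were mixed: epithelium by EPCAM without CD45, and, all with CD45, T cells by CD3, alveolar macrophages by CD11c with SigF, and further macrophages by CD11b without Ly6G.

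Each group was 1 library made from 3 pooled mice aged 16 to 20 weeks, fed doxycycline chow at 625 ppm. The WT healthy library carried the Ccsp-rtTA;TetO-EGFRL858R alleles by its label, with no floxed Pparg allele. The WT tumour library carried the same pair of transgenes with Pparγfl/fl. The PPARg-/- tumour library carried them with Pparγfl/fl and Csf1rCre, a recombinase that acts in the monocyte and macrophage lineage and so is not limited to alveolar macrophages. In WT tumour against WT healthy, tumour, floxed alleles and library cannot be told apart. Sex, which is not reported here, cannot be told apart from these groups either. In PPARg-/- tumour against WT tumour, genotype and library cannot be told apart. With 1 library per group there was no test, and no p-value is given.

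Sterols are built from acetyl-CoA through mevalonate to squalene, which is closed into a ring and trimmed to cholesterol. When the endoplasmic reticulum is short of sterol, SCAP carries the SREBP transcription factors to the Golgi, where they are cleaved and go on to raise synthesis genes; when sterol is plentiful, INSIG proteins hold SCAP back. Liver X receptors, which oxysterols activate, raise genes of cholesterol export and the E3 ligase gene Mylip. In the lung, alveolar macrophages clear surfactant lipid, and alveolar type 2 (AT2) cells make surfactant from newly built fatty acids.

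The libraries held 30454790 to 46148658 UMIs, and 2947, 4374 and 5137 barcodes passed the filters. Wherever 3 values are joined, they stand in the order WT healthy, WT tumour, PPARg-/- tumour. Between 4 and 6 of these barcodes were shared by any pair of libraries. Cells were clustered without the 32 genes, and clusters were named from marker genes; a class name such as T cell or AT2 stands for T-cell-like or AT2-like throughout. The main macrophages of a library are its largest cluster that did not cycle and had at least 5 of 10 alveolar macrophage markers raised. They numbered 853, 961 and 1160 cells, with median UMIs of 12733, 14890 and 16493.5. These are 3 separate clusters, 1 almost wholly from each library, and they are compared as clusters and not as one named cell type. In WT healthy 10 of 10 alveolar markers were raised and 0 of 10 interstitial macrophage markers, and in WT tumour 9 and 0. For the PPARg-/- cluster it was 6 alveolar and 7 interstitial markers, with Apoe, C1qb, Spp1 and Fn1 as leading genes, so by marker count alone it would be named interstitial-macrophage-like. Levels are given as CPM, the UMIs of a gene per 1000000 UMIs of its class. The alveolar markers summed to 23443.5, 21367 and 13770 CPM, and the interstitial markers to 67.2, 80.1 and 19021 CPM. Pparg itself was at 198, 172 and 376 CPM, and reads from the 3' end do not show which exons a transcript holds, so this does not check the deletion.

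Promoter sequence is shown first, since the genes of this pathway are known for shared control elements beside their start sites. Of the 32 genes, 26 matched an entry among RefSeq promoters of build GRCm38.p6. In the 250 bases before the start, on either strand, the NF-Y box CCAAT was found in 15 of the 16 matched sterol synthesis genes and in 37.5% of 27025 genes. Among the 9410 genes measured in the main macrophages that matched, 40.4% held it. All 9 matched genes from squalene to cholesterol had one, as did 6 of 7 mevalonate genes and 5 of 6 regulators, but 1 of 4 fatty acid genes. A gene with several listed starts was counted if any start had the motif, among members and all genes alike. Dhcr7 had the NF-Y box only at its most downstream listed start, and Pmvk, Insig2 and Srebf1 lacked it at some starts. The Sp1 box GGGCGG was found in 14 of the 16 sterol synthesis genes, against 35.4% of all genes and 63.2% of measured ones. A form of the sterol regulatory element, TCACNCCAC, was found in 1 member, Hmgcs1, and in 1.22% of all genes. The letters are a match and not a shown binding site. The Hmgcs1 element lay 137 bases before the start (chr13:119690199-119690237, plus strand), and its letters are in capitals:
Hmgcs1 element: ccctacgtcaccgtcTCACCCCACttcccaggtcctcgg
The 100 bases just before the start are given, 5′ to 3′ on the strand of the gene, for 4 sterol synthesis genes, for Fasn and for Mylip. These were picked from the windows that overlap no annotated exon. They span genes with a large (Hmgcs1, Sc5d, Fasn), a middle (Mvk) and a small (Ebp) difference in PPARg-/- tumour macrophages and a gene that went the other way (Mylip). The other windows free of exons are not printed: those of Acaca and Acly held 0 NF-Y boxes, Nsdhl 1 and Mvd 2. Capitals mark CCAAT or its reverse complement ATTGG, which overlap once in Fasn. The windows are chr13:119690251-119690350 (plus) for Hmgcs1, chr9:42264301-42264400 (minus) for Sc5d, chr5:114444169-114444268 (plus) for Mvk, chrX:8193513-8193612 (minus) for Ebp, chr11:120824548-120824647 (minus) for Fasn and chr13:45389642-45389741 (plus) for Mylip.
Hmgcs1: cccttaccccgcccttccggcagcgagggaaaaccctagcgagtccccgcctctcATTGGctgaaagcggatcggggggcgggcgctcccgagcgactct
Sc5d: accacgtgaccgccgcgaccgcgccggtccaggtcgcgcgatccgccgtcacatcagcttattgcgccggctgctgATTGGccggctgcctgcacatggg
Mvk: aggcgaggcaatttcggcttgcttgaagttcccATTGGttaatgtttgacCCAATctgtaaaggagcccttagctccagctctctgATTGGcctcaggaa
Ebp: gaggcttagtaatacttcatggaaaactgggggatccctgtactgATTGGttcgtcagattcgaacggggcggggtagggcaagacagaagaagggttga
Fasn: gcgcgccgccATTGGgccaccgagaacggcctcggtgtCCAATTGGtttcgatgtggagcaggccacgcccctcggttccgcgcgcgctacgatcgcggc
Mylip: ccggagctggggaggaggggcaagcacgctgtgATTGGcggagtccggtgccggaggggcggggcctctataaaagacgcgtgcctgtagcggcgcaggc
Mvk carried 3 such boxes in this stretch and the others 1, apart from Fasn with 3 counted over both strands. Whether the box bears on the levels given next was not tested.

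In the main macrophages, the summed sterol synthesis genes were higher in WT tumour than in WT healthy and lower in PPARg-/- tumour than in either. The 19 enzymes summed to 565, 1122 and 310 CPM. The log2 ratio of WT tumour over WT healthy was 0.99, with a 95% interval from 0.95 to 1.03. That of PPARg-/- tumour over WT tumour was −1.86, from −1.90 to −1.81. Intervals here are exact for the ratio of 2 Poisson counts and cover counting error only, not the spread between mice or libraries. Fatty acid synthesis genes differed less: their sums were 185, 287 and 201 CPM, log2 ratios 0.63 and −0.51. Both contrasts use the same WT tumour library, so a high or low value there enters both with opposite sign.

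A gene is called here when its CPM differed by at least 1.5-fold with an interval that excludes no difference, among genes with at least 20 UMIs in the pair. In WT tumour over WT healthy, 22 of the 32 genes were called higher and 2 lower, where 7.56% of all 11534 genes measured were higher and 15.3% lower. The members' median log2 ratio was 0.87, and that of all genes −0.16. Of the 19 sterol synthesis enzymes 16 were higher and 1 lower, with a median of 0.97. Dissociation stress genes, such as Fos and Jun, summed to 2573 CPM in WT healthy and 1368 CPM in WT tumour; their part in the result was not tested. In PPARg-/- tumour over WT tumour, 26 of the 32 genes were called lower and 2 higher, where 18.5% of 12109 genes were lower and 14.9% higher. The median was −1.73 for the members and −0.14 for all genes. Of the 19 sterol synthesis enzymes 18 were lower and 0 higher, with a median of −2.13. The interstitial markers given above moved with this second contrast, and proliferation genes summed to 94.0, 71.5 and 33.1 CPM. The part of either was not tested.

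**Figure D1:**
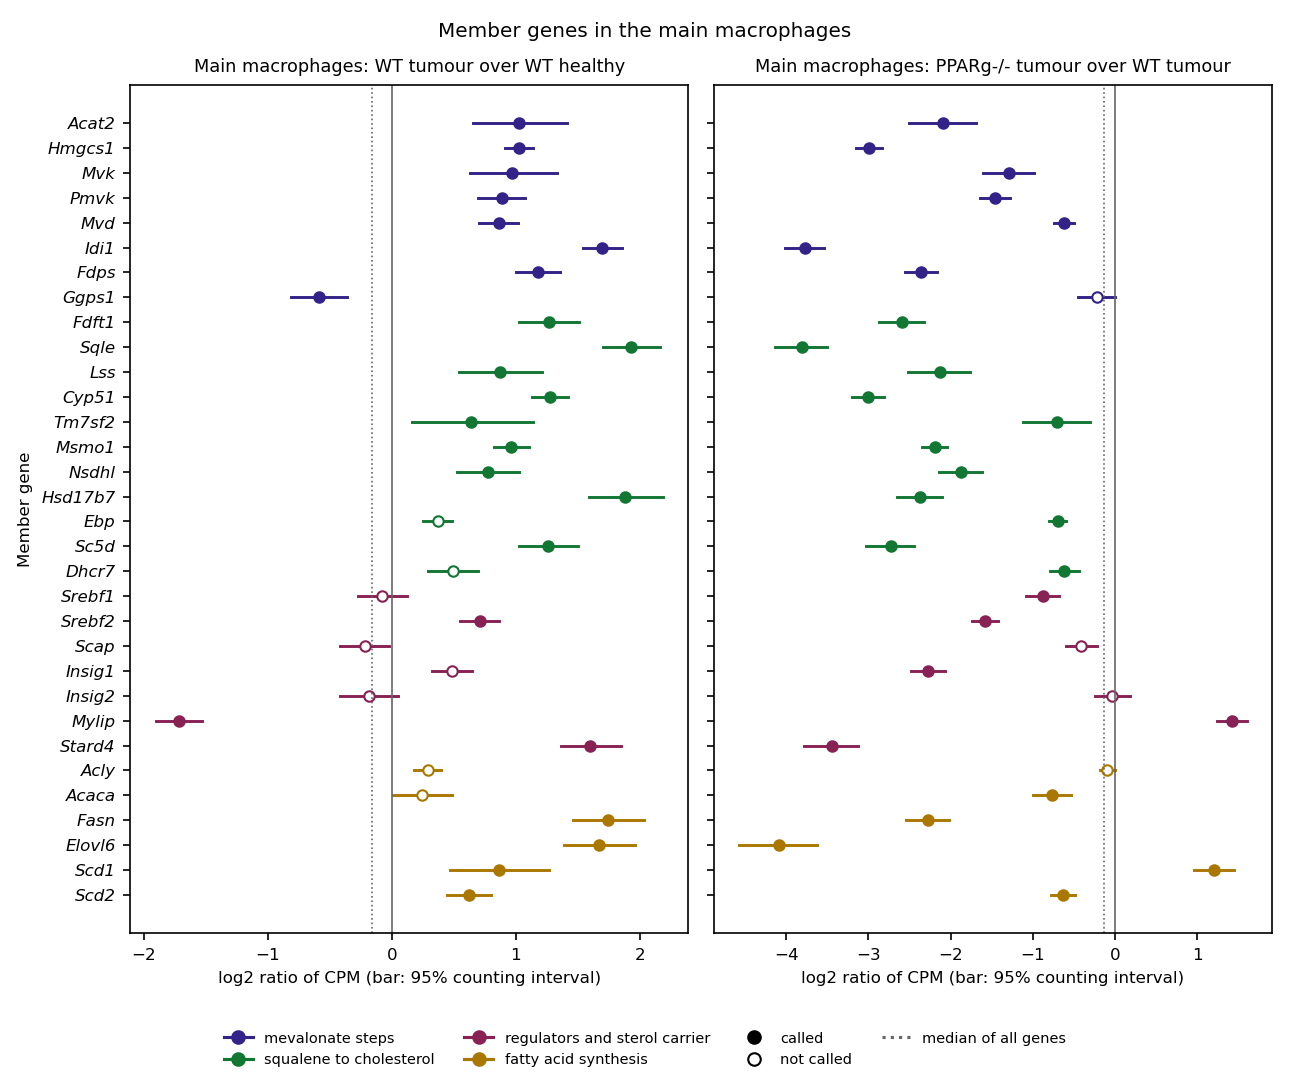
Log2 ratio of CPM in the main macrophages for each of the 32 genes, WT tumour over WT healthy on the left and PPARg-/- tumour over WT tumour on the right. Bars are 95% counting intervals, filled points are called genes and the dotted line is the median of all genes measured (−0.16 and −0.14). Most points lie right of that line on the left and left of it on the right, and Mylip does the opposite.

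The mevalonate steps begin with acetyl-CoA units that Acat2 and Hmgcs1 join. Hmgcs1 had 78.1, 159 and 20.0 CPM. Acat2, the thiolase, had 7.31, 14.9 and 3.50 CPM. Both were highest in WT tumour, and Hmgcs1 was lower in PPARg-/- tumour by a log2 of −2.99. Mevalonate is then phosphorylated by Mvk (8.56, 16.8 and 6.85 CPM) and Pmvk (29.2, 53.9 and 19.6 CPM). Mvd, which removes the carboxyl group to give isopentenyl diphosphate, had 43.3, 78.5 and 51.1 CPM. Mvd was the 1 enzyme of this block whose PPARg-/- tumour level lay above its WT healthy level. Idi1, the isomerase that makes dimethylallyl diphosphate, had the largest ratios of the block, with 35.5, 115 and 8.43 CPM. Its log2 ratios were 1.70 (1.54 to 1.86) and −3.77 (−4.01 to −3.54). Fdps, which makes farnesyl diphosphate, had 31.0, 70.1 and 13.7 CPM.

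Ggps1 makes geranylgeranyl diphosphate, the branch that leaves sterol synthesis for protein prenylation. It was the 1 enzyme of the 19 called lower in WT tumour, with 31.7, 21.1 and 18.0 CPM and a log2 ratio of −0.59. Against WT tumour the PPARg-/- value was not called (−0.23). The ratio lay at the 1.5-fold limit, and under 7 alternatives it missed the call, with values from −0.57 to −0.41. How Ggps1 differs from the enzymes that lead to squalene was not tested.

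From squalene to cholesterol the first enzymes had some of the largest differences. Fdft1, squalene synthase, had 16.9, 40.7 and 6.75 CPM. Sqle, the epoxidase that is a flux-controlling step, had 16.9, 64.1 and 4.57 CPM. Its log2 ratios, 1.93 and −3.81 (−4.14 to −3.50), were the largest of this block in both contrasts. Lss, which closes the ring to lanosterol, had 9.36, 17.1 and 3.91 CPM. Cyp51, the lanosterol demethylase, had 43.5, 105 and 13.1 CPM. These enzymes were each highest in WT tumour and each lower in PPARg-/- tumour than in WT healthy.

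The demethylation and reduction steps that follow varied more. Msmo1, which oxidises the methyl groups at carbon 4, had 52.8, 103 and 22.5 CPM. Nsdhl (17.6, 30.01 and 8.17 CPM) and Hsd17b7 (10.1, 37.1 and 7.16 CPM) complete that removal, and Hsd17b7 had the larger ratio in WT tumour over WT healthy, 1.88. Sc5d, the desaturase, had 17.03, 40.8 and 6.14 CPM. Ebp, the isomerase, and Dhcr7, the last reductase here, differed least: Ebp had 84.2, 109 and 66.9 CPM, and Dhcr7 27.5, 38.7 and 25.2 CPM. Neither was called in WT tumour over WT healthy, and both were called lower in PPARg-/- tumour, by log2 ratios of −0.70 and −0.62. With scaling by the median ratio the second call was lost for Ebp (−0.56) and Dhcr7 (−0.48), and for Mvd (−0.48) and Tm7sf2 (−0.57), which leaves 14 sterol enzymes lower in place of 18, while Dhcr7 was called higher in the first contrast (0.65). Other alternatives ended some of these calls too: a minimum of 2000 UMIs gave −0.40 for Mvd and −0.52 for Dhcr7. Under that minimum the PPARg-/- main macrophages were also 594 cells in place of 1160. Another 553 cells of that library formed a separate class named from alveolar markers and were left out. The same split came with Leiden resolution 2 (604 and 555 cells) and with each library clustered alone (655 and 505). Under these settings the second contrast therefore covers only the first part of the cells. Tm7sf2, a sterol reductase, had 4.91, 7.65 and 4.67 CPM and was called in both contrasts, 0.64 and −0.71.

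Among the regulators, Srebf2, Insig1 and Stard4 went the way of the enzymes, and neither Scap, the escort, nor Insig2, its anchor, was called in either contrast. Srebf2, whose product drives sterol genes, had 43.4, 71.0 and 23.8 CPM, called higher and then lower (0.71 and −1.58). Srebf1, whose product drives fatty acid genes, had 35.4, 33.6 and 18.2 CPM. Scap had 36.2, 31.1 and 23.4 CPM and Insig2 24.7, 21.7 and 21.2 CPM. Insig1, itself a target of SREBP, had 43.3, 60.5 and 12.5 CPM and was called in the second contrast (−2.27) but not the first (0.48). Stard4, a carrier that moves cholesterol between membranes, had 15.9, 48.2 and 4.42 CPM, log2 ratios 1.60 and −3.45.

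Mylip encodes the E3 ligase that marks lipoprotein receptors for breakdown and is a known target of liver X receptors. It had 74.6, 22.7 and 60.7 CPM. Its ratios were −1.72 (−1.90 to −1.53) and 1.42 (1.24 to 1.60), opposite in sign to the sterol enzymes in each contrast.

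The fatty acid genes were split between those that went with the sterol enzymes and those that did not. Acly, which makes cytosolic acetyl-CoA from citrate, had 98.5, 120 and 112 CPM and was called in neither contrast. Acaca, acetyl-CoA carboxylase, had 21.1, 25.1 and 14.7 CPM, with a call only in PPARg-/- tumour over WT tumour (−0.77). Fasn, fatty acid synthase, had 11.4, 38.1 and 7.87 CPM. Fasn had ratios as large as many sterol enzymes, 1.74 and −2.28, though its PPARg-/- value is open to free RNA, of which 62.2 CPM was Fasn in that library. Elovl6, which extends palmitate, had 11.3, 36.1 and 2.13 CPM, and its ratio of −4.08 (−4.57 to −3.63) was the lowest of all 32 genes. Scd2, a desaturase, had 35.9, 55.1 and 35.6 CPM. Scd1, the other desaturase, had 6.78, 12.3 and 28.3 CPM, but RNA outside cells held 121, 1016 and 558 CPM of it, so all 3 values are open to free RNA. A level is called open when 10% of the gene's CPM in free RNA reaches 50% of it.

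The members were also compared between clusters within the PPARg-/- tumour library. Of its cells, 82 fell into the cluster that forms the main macrophages of WT tumour. Clustering without the 32 genes put them there for their likeness to WT tumour cells. Because of that choice, the comparison is not a separate check of the second contrast. Their alveolar macrophage markers summed to 20649 CPM and their interstitial markers to 199 CPM. Against the 1160 main macrophages of the same library, 19 of the 32 genes were higher and 0 lower, where 18.4% of genes were higher and 8.72% lower. The sterol enzymes summed to 626 CPM in these 82 cells and 310 CPM in the main macrophages, the first lying between the sums of the 2 WT libraries. Idi1 had 51.9 CPM against 8.43, Hmgcs1 65.4 against 20.0, Sqle 19.2 against 4.57 and Stard4 15.4 against 4.42. Mylip did not follow, at 57.7 CPM against 60.7. Proliferation genes summed to 168 CPM in the 82 cells and 33.1 CPM in the main macrophages, and their part was not tested. Whether these cells still held an intact Pparg allele cannot be read from these counts.

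Cycling alveolar macrophages gave a comparison in which proliferation differed and the library did not. In WT tumour, 84 such cells had proliferation genes at 4085 CPM, against 71.5 CPM in the main macrophages. None of the 32 genes was called higher in them and 4 were lower, where 15.3% of genes were higher and 4.84% lower. Their sterol enzymes summed to 870 CPM against 1122 CPM.

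Outside macrophages and AT2 cells, few members were called between the tumour libraries. In PPARg-/- tumour over WT tumour, nonclassical monocytes, also of the lineage in which Csf1rCre acts, had 0 members higher and 1 lower of 29 measured, where 4.51% of genes were called each way. Their sterol enzymes summed to 390 CPM against 380 CPM. Classical monocytes had 2 higher and 1 lower of 20 (background 4.06% and 3.23%), with sums of 555 and 495 CPM. The sums lay close in both monocyte classes. Their Pparg level is not given here, and what the recombinase did in these cells was not tested. Interstitial macrophages had 1 higher and 0 lower of 27 (4.83% and 4.12%), with sums of 489 and 452 CPM. Dendritic cells, mostly a cycling cluster, had 1 and 0 of 31 (2.81% and 4%), T cells 1 and 3 of 31 (1.84% and 4.87%), and endothelial cells 1 and 0 of 27 (4.19% and 3.62%). In B cells only 9 members had enough UMIs, and 0 were called either way (3.7% and 7.48%).

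**Figure D2:**
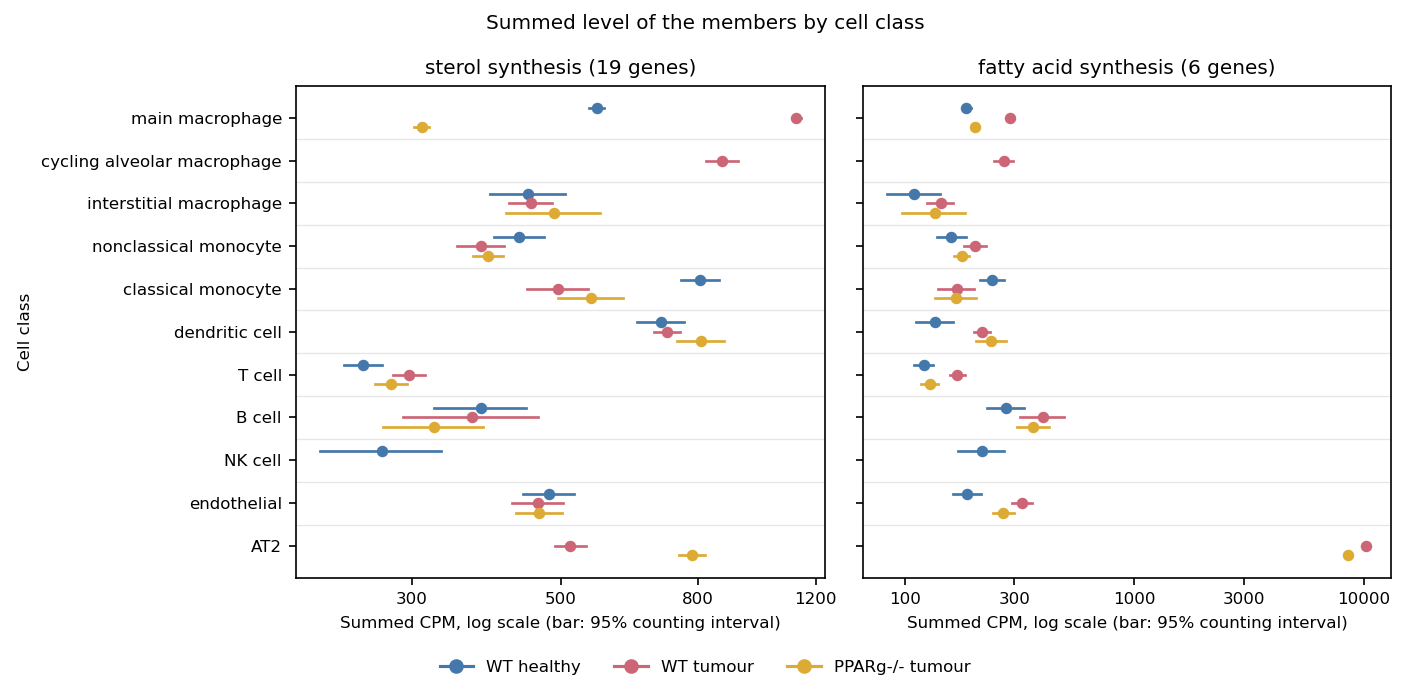
Summed CPM of the 19 sterol synthesis genes and of the 6 fatty acid synthesis genes by cell class, on a log axis, 1 point per library with at least 50 cells of the class. Sterol sums of the main macrophages spread from 310 to 1122 CPM while those of most other classes lie close together, and AT2 cells stand apart in the fatty acid sum at 8514 and 10248 CPM.

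AT2 cells, the surfactant-making epithelium, went the other way from macrophages in this contrast. Of 31 members measured, 9 were higher and 1 lower in PPARg-/- tumour than in WT tumour, where 3.28% of genes were higher and 5.34% lower, and the median was 0.28 against −0.10 for all genes. Sterol enzymes summed to 784 CPM in 169 cells of PPARg-/- tumour and 517 CPM in 177 cells of WT tumour, a log2 ratio of 0.60 (0.50 to 0.70). Idi1 had 71.1 CPM against 32.6, Fdps 111 against 53.0, Sqle 33.0 against 14.8 and Hmgcs1 103 against 63.4. Insig1 was likewise higher, 82.0 CPM against 39.7. Mylip was the gene called lower, 14.9 CPM against 33.7. The fatty acid genes summed to 8514 CPM against 10248 CPM, and none of the 6 was called. WT healthy held 41 AT2 cells, too few for a comparison.

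In WT tumour over WT healthy, the classical monocytes went the other way from the macrophages. Of 25 members measured 0 were higher and 9 lower, where 3.82% of genes were higher and 5.67% lower. The count was 4 lower with doublets kept, 5 with each library clustered alone, and 0 of 6 measured in cells thinned to 1000 UMIs. Their sterol enzymes summed to 807 and 495 CPM, healthy first, a log2 ratio of −0.71 (−0.89 to −0.53). Idi1 had 82.6 and 33.5 CPM, Sqle 57.1 and 21.0 CPM, and Cyp51 91.4 and 41.9 CPM. Nonclassical monocytes had 2 members higher and 4 lower of 25 (5.05% and 5.47%), with sums of 434 and 380 CPM. Dendritic cells had 5 higher and 1 lower of 31 (7.59% and 7.63%). T cells had 3 and 0 of 31 (7.79% and 4.03%), interstitial macrophages 3 and 0 of 27 (3.84% and 9.15%), endothelial cells 3 and 0 of 27 (5.9% each way) and B cells 1 and 0 of 9 (8.46% and 7.29%). Sterol sums in these last classes lay close: T cells had 254 and 297 CPM, endothelial cells 480 and 462 CPM, and interstitial macrophages 447 and 452 CPM. The interstitial result depends on the clustering: with each library clustered alone it was 2 higher and 6 lower, and the median of the sterol enzymes went from 0.0070 to −0.46. Dendritic cells had 3 higher at a mitochondrial limit of 5% or with free RNA taken off, and endothelial cells 2 lower under either.

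Within a library, the place of the macrophages among cell types depended on the group. Over T cells, the main macrophages had 23 members higher and 2 lower in WT healthy (background 39.5% and 21.9%) and 25 and 3 in WT tumour (35.2% and 28.9%). The PPARg-/- macrophages had 9 higher and 10 lower (33.6% and 30.6%), close to the share of all genes. The log2 ratio of the sterol sums was 1.16, 1.92 and 0.15 in that order. Over nonclassical monocytes, the counts were 13 higher and 2 lower in WT healthy (28.7% and 16.9%), 23 and 2 in WT tumour (26.8% and 22.9%), and 8 and 14 in PPARg-/- tumour (26.3% and 29.4%). The sterol ratio was 0.38, 1.56 and −0.33. In WT healthy the direction was lost with doublets kept, with 11 higher and 8 lower and a sterol median of −0.027 in place of 0.54, and median scaling left 6 higher, where 21.9% of all genes were. AT2 cells over main macrophages had 10 members higher and 17 lower in WT tumour (28.4% and 29.7%) but 25 higher and 5 lower in PPARg-/- tumour (28% and 26.1%), with sterol ratios of −1.12 and 1.34. By sterol genes, main macrophages stood above AT2 cells in WT tumour and below them in PPARg-/- tumour.

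**Figure D3:**
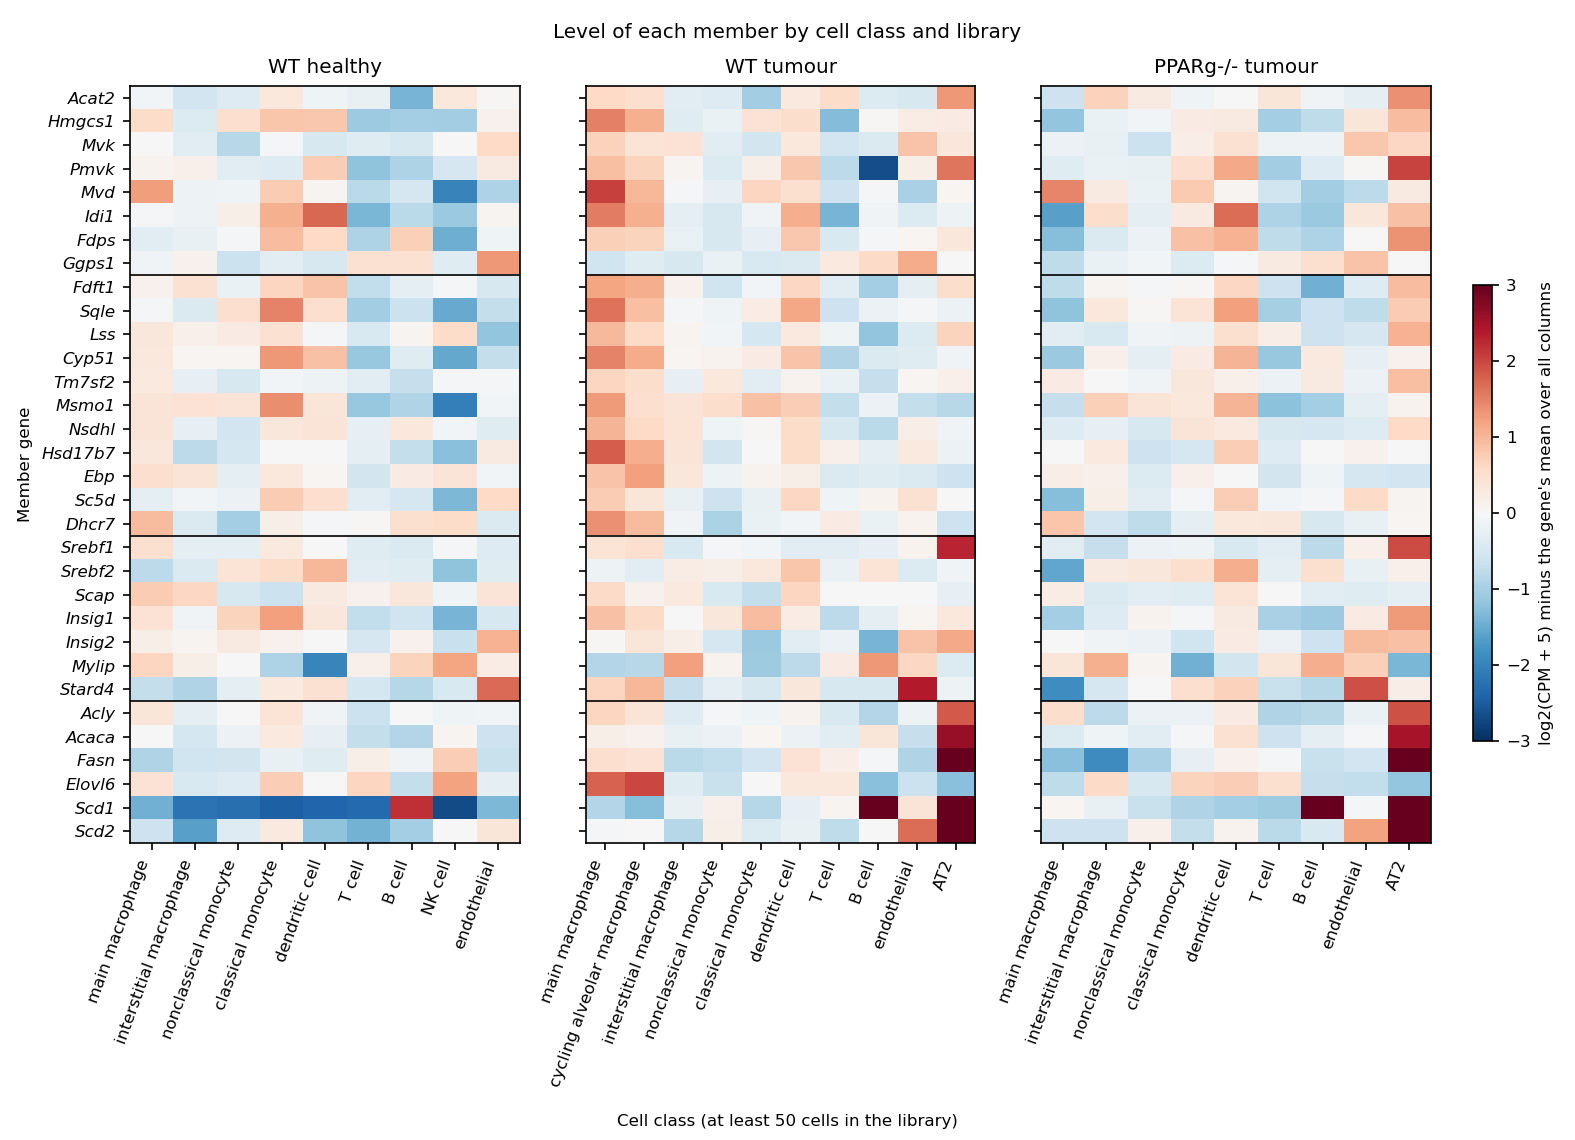
Heat map of the 32 genes (rows) in each class with at least 50 cells (columns), 1 panel per library. Colour is log2(CPM + 5) minus the mean of that gene over all columns, drawn from −3 to 3. The main macrophage column is warm for most sterol genes in WT tumour and cool in PPARg-/- tumour, and the AT2 column is warm for Scd1, Scd2 and Fasn in the tumour libraries.

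The class in which each gene was highest was counted for the tumour libraries, over classes with at least 50 cells; WT healthy is left out since its 41 AT2 cells do not reach that. Main macrophages led for 13 genes in WT tumour, and AT2 cells for 9. AT2 cells led in PPARg-/- tumour for 15, dendritic cells for 9 and main macrophages for 3. The counts were over 10 classes in WT tumour, cycling alveolar macrophages among them, and 9 in PPARg-/- tumour. The same count was not made over all genes, so these numbers are not read as a trait of the members.

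Fatty acid genes were high in AT2 cells. Scd1 was at 4296, 7898 and 6463 CPM, the first from the 41 AT2 cells of WT healthy. Fasn was at 701, 928 and 708 CPM, Scd2 at 605, 982 and 900.1 CPM and Acaca at 206, 157 and 142 CPM. Srebf1, whose product drives these genes, was at 82.5, 137 and 107 CPM. In the tumour libraries each of these genes was highest in AT2 cells of all classes with at least 50 cells. The next class for Scd1 was B cells, at 248 and 247 CPM. Elovl6 was the exception in AT2 cells, with 0, 0 and 1 UMIs, while the main macrophages of WT tumour had it at 36.1 CPM.

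In endothelial cells the count of members higher than in T cells was near the share of all genes in the WT libraries. Endothelial cells over T cells had 12 members higher and 2 lower in WT healthy (38.7% and 16.9%), 11 and 3 in WT tumour (37.7% and 17.3%) and 17 and 2 in PPARg-/- tumour (41.6% and 16.6%). Stard4 was at 106, 174 and 126 CPM in endothelial cells, and Ggps1 at 91.8, 79.7 and 65.7 CPM. Dendritic cells over nonclassical monocytes had 8 and 2 (17.3% and 18.4%), 17 and 1 (24.3% and 19.5%) and 18 and 1 (17.4% and 19.5%). Their Srebf2 was at 163, 145 and 173 CPM and Idi1 at 132, 83.4 and 127 CPM. The cluster that holds most dendritic cells had cycling genes raised, whose part was not tested. T cells had Idi1 at 11.1, 10.8 and 16.9 CPM.

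Cells of one class also differed among themselves, and at equal depth sterol genes varied together in main macrophages of the WT libraries. In PPARg-/- tumour too few enzymes were detected for the same reading. Each cell was first thinned to 2000 UMIs, which kept 847, 951 and 1148 main macrophages, and each gene was correlated with the summed UMIs of the other sterol enzymes. The cells of a library share its preparation, so r is a description and carries no p. Of the sterol enzymes detected in at least 5% of cells, the median r was 0.14 over 10 genes in WT healthy and 0.14 over 13 in WT tumour. For 5279 and 4966 other genes the 95th percentile was 0.0597 and 0.0565, and 7 of 10 and 11 of 13 enzymes lay above it. Only 3 enzymes were detected that often in PPARg-/- tumour, Mvd, Ebp and Dhcr7, and 0 lay above the 95th percentile of 0.0560. With doublets kept 3 of 4 lay above their own 95th percentile, and with Pearson residuals of unthinned counts 16 of 19, against 18 of 19 in each WT library. Ebp and Dhcr7 were also low in WT tumour (−0.020 and 0.024), so the median over these 3, 0.0020, does not stand for the same genes as the others.

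Idi1, Msmo1, Sqle and Hmgcs1 were among the enzymes that varied most with the rest. Idi1 had r of 0.27, 0.22 and 0.11, Msmo1 0.23, 0.20 and 0.087, and Sqle 0.23, 0.18 and 0.13. Hmgcs1 had 0.18, 0.25 and 0.074. Sqle was detected in 3.31% of WT healthy cells, and in PPARg-/- tumour Sqle was detected in 0.871%, Idi1 in 1.92%, Msmo1 in 3.92% and Hmgcs1 in 4.01%, all under the 5% limit above. In PPARg-/- tumour the r of each of these genes still lay above 0.0560, the 95th percentile of other genes. That percentile was taken over genes past the 5% limit. Of the regulators, Srebf2 had 0.10, 0.16 and 0.10, and Mylip −0.070, −0.11 and −0.065, the lowest of the 32 in each library. Single pairs were weak: over 78 pairs of sterol enzymes in WT tumour the median r was 0.051 and the highest 0.19, for Idi1 with Msmo1. Of genes outside the list, those with the highest mean r over the 3 libraries were led by Ccdc80, Btg1 and Osm, with means of 0.10, 0.091 and 0.083 among 4094 genes, which are weak values.

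Counting UMIs directly gives the same in plain terms. In WT healthy, main macrophages with 0, 1, 2 and 3 or more mevalonate UMIs held 47.3, 59.5, 100 and 191 UMIs of the squalene-to-cholesterol genes per 100 cells (533, 220, 61 and 33 cells). In WT tumour the same bins held 89.7, 123, 149 and 215 per 100 cells (389, 286, 150 and 126 cells). PPARg-/- macrophages held 31.5, 35.1 and 69.0 in the first 3 bins (867, 242 and 29 cells). So in the WT libraries cells with more of one arm of the pathway had more of the other at equal depth. In PPARg-/- tumour the first 2 bins lay close, and the third rests on 29 cells. Msmo1 and Sqle carried much of it in WT tumour, with 14.4 and 7.198 UMIs per 100 cells in the lowest bin and 48.4 and 30.2 in the highest. Srebf2 went from 12.1 to 28.6 per 100 cells over the same bins. Mylip was at 6.43, 4.20, 5.33 and 0.794, the last from very few UMIs in 126 cells. In WT healthy Mylip was at 15.4, 11.4, 14.8 and 9.09, with no steady fall. In WT tumour alveolar markers were near level, at 4176 in the lowest bin and 4471 in the highest, and proliferation genes at 15.2 and 11.1. Stress genes were at 248 and 356, and their part was not tested.

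**Figure D4:**
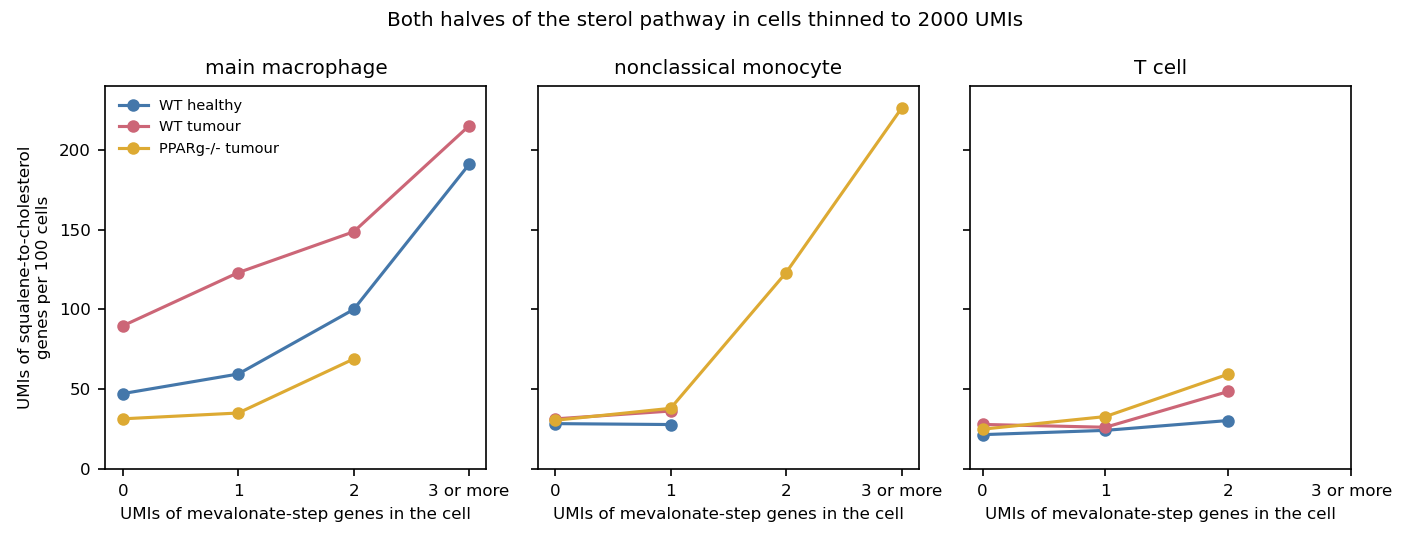
UMIs of squalene-to-cholesterol genes per 100 cells (vertical axis) against the mevalonate UMIs of the cell (horizontal axis, 0, 1, 2, 3 or more), for cells thinned to 2000 UMIs, 1 line per library. Bins under 20 cells are not drawn. Main macrophages of the WT libraries and PPARg-/- nonclassical monocytes climb across bins, and T cells stay near the bottom.

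Sterol genes varied together in monocytes too, less clearly in the classical ones of PPARg-/- tumour. Nonclassical monocytes of PPARg-/- tumour held 30.6, 38.1, 123 and 226 squalene-to-cholesterol UMIs per 100 cells over the 4 bins, though the last had 23 cells. The median r of their 6 enzymes was 0.22, and 4 lay above the 95th percentile of other genes. In nonclassical monocytes of WT healthy only the bins of 0 and 1 had at least 20 cells, and they held 28.5 and 27.9. In WT tumour these bins held 31.4 and 36.4, so no rise was seen in WT healthy and a small one in WT tumour. Median r there was 0.21 and 0.13, with 4 of 6 and 3 of 5 enzymes above the percentile. Classical monocytes had medians of 0.31, 0.26 and 0.16 from 157, 133 and 108 cells, with 8 of 10, 6 of 8 and 2 of 8 enzymes above the 95th percentile. The last median lay below its percentile of 0.17. T cells had medians of −0.041, −0.011 and 0.031 over 2 or 3 enzymes, and endothelial cells 0.046, 0.031 and 0.025. AT2 cells of PPARg-/- tumour had 0.18 over 9 enzymes, and those of WT tumour 0.082. Dendritic cells of WT tumour had 0.17, with 8 of 10 enzymes above the percentile. Interstitial macrophages of WT tumour had 0.075, with 1 of 7 above.

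The distribution of sterol UMIs over cells differed with the group, as did its mean. At 2000 UMIs per cell, main macrophages held a mean of 1.15, 2.38 and 0.627 sterol UMIs, with SDs over cells of 1.52, 2.18 and 0.866. Cells with 0 made up 41.4%, 17.2% and 54.8%. Cells with 5 or more made up 3.54%, 14.8% and 0.436%. The variance over the mean, which is 1 for pure counting, was 2.01, 1.99 and 1.20. Both shares and this ratio depend on the mean, which differed between the groups. Whether the spread differed beyond that was not tested.

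**Figure D5:**
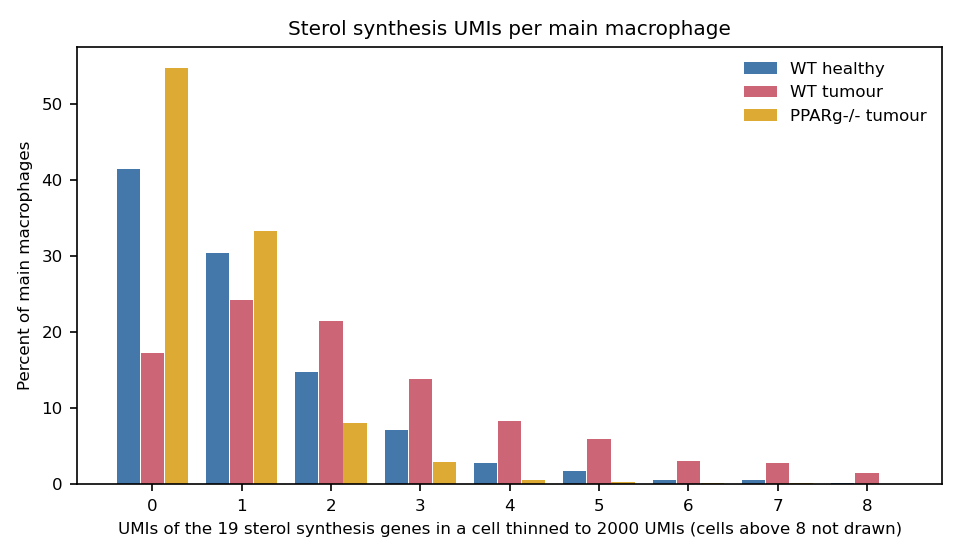
Percent of main macrophages (vertical axis) by their number of sterol synthesis UMIs, 0 to 8 (horizontal axis), at 2000 UMIs per cell, 1 set of bars per library. WT tumour has the fewest cells at 0 (17.2%) and the most with 5 or more (14.8%), and PPARg-/- tumour the most at 0 (54.8%).

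Genes of 4 lists around the pathway are given for the main macrophages. Their counts stand beside 7.56% of all genes higher and 15.3% lower in WT tumour over WT healthy, and 14.9% higher and 18.5% lower in PPARg-/- tumour over WT tumour. Of 11 genes of SREBP processing and sterol sensing, 1 was higher and 1 lower in WT tumour over WT healthy, Tmem97 (0.86) and Erlin1 (−0.59) being the extremes. Against WT tumour, PPARg-/- macrophages had 0 higher and 3 lower, from Mbtps1 at 0.34 to Nr1h3, the liver X receptor alpha gene, at −2.61. Nr1h3 had 39.6 CPM in WT tumour against 6.50 CPM in PPARg-/- tumour. Of 16 partners of fatty acid synthesis, 6 were higher and 2 lower in the first contrast and 1 and 9 in the second. Fads2, a desaturase of polyunsaturated fatty acids, was the highest in the first (2.85) and the lowest in the second (−3.08), from only 2, 19 and 3 UMIs, with intervals of 0.80 to 5.997 and −5.48 to −1.32. Of 10 genes that use isoprenoids, 0 were higher and 3 lower in the first and 1 and 1 in the second, from Fntb, a subunit of farnesyltransferase, at 41 and 27 UMIs and lowest in the first, to Pggt1b (0.11). In the second Fntb was highest (0.83) and Nus1 lowest (−0.69).

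Of 13 genes of sterol uptake, storage and export 12 were measured: 2 higher and 3 lower in WT tumour over WT healthy, and 3 higher and 4 lower in PPARg-/- tumour over WT tumour. Abca1, the exporter of cholesterol to apolipoproteins and a known liver X receptor target, had 122, 13.8 and 265 CPM. Its log2 ratios were −3.15 and 4.27, the same signs as Mylip. Apoe, an apolipoprotein that accepts cholesterol, had 43.3, 12.3 and 13671 CPM. Apoe is also among the interstitial markers, so its value is part of how those cells differ. Ch25h, which makes 25-hydroxycholesterol, was the highest in the first contrast (1.52), and Scarb1, a lipoprotein receptor, the lowest in the second (−1.72).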

How the data were processed

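Raw UMI counts per gene and barcode were deposited by the authors for each of the 3 libraries of pooled mouse lung cells, unfiltered, with 6794880 barcodes listed. They come from Cell Ranger on mm10: version 4 per the file headers, 6.0.1 (with Seurat 4.0.1) per the submitters' processing notes. Barcodes with at least 1000 UMIs, at least 500 genes and at most 10% mitochondrial UMIs were kept, which held 77.7%, 76.9% and 84.6% of UMIs. Doublets were removed per library with Scrublet at an expected rate of 6%.

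Cells were clustered together in scanpy 1.11.5 (Python 3.11.15), by Leiden at resolution 1 on 30 components, 15 neighbours and 2000 variable genes, with the 32 genes, the lists around them and Pparg left out. Clusters were named by 3 or more markers, each detected in 10% of the cells or more and exceeding the median over clusters 4-fold after 10 CPM was added. UMIs were summed per class and library, and classes with at least 50 cells were compared as CPM, over genes with at least 20 UMIs in the pair. Intervals at 95% were computed with scipy 1.17.1. The free RNA profile was summed from barcodes with 10 to 100 UMIs. Cells were thinned to 2000 UMIs for co-variation in classes of at least 100 cells. The calls were tried on simulated counts that held counting error only. That trial says nothing on the spread between mice, libraries or clusterings.

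The members and all lists were chosen with earlier results of these data known. Named genes are the 32 members, Pparg, the cell type markers, the highest and lowest gene of each list around the pathway in each contrast, and genes outside the list with the highest mean r.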

Additional observations from a re-analysis of the deposited data

Results flagged for a closer look

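The values below were picked out because 2 cell classes were called in opposite directions under the same contrast. Each class is 1 library per group, so the difference between classes was not tested. Values are log2 ratios, with that of the main macrophages in brackets.

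In WT tumour over WT healthy, classical monocytes went against the main macrophages: summed sterol synthesis −0.71 (0.99), Idi1 −1.30 (1.70), Sqle −1.45 (1.93), Fdps −1.27 (1.18), Cyp51 −1.12 (1.27), Sc5d −1.18 (1.26), Stard4 −0.92 (1.60) and Scd2 −0.78 (0.62). Nonclassical monocytes did so for Hmgcs1 at −0.76 (1.03), Idi1 at −0.76 and Sqle at −0.82. Idi1 was at −0.66 in dendritic cells. Mylip was higher in interstitial macrophages at 1.11 and in dendritic cells at 1.62 (−1.72).

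In PPARg-/- tumour over WT tumour, AT2 cells went against the main macrophages: summed sterol synthesis 0.60 (−1.86), Idi1 1.12 (−3.77), Sqle 1.15 (−3.81), Fdps 1.07 (−2.36), Hmgcs1 0.70 (−2.99), Msmo1 1.11 (−2.20), Nsdhl 0.93 (−1.88), Tm7sf2 1.32 (−0.71), Dhcr7 1.08 (−0.62), Insig1 1.05 (−2.27) and Mylip −1.18 (1.42). Idi1 was also higher in interstitial macrophages at 0.90, in endothelial cells at 0.87, in T cells at 0.65 and in dendritic cells at 0.61. Classical monocytes had Fdps at 1.22 and Stard4 at 1.15 (−3.45). Scd1 was at −1 in nonclassical monocytes and −1.48 in T cells (1.20), where its level is open to free RNA in all 3 classes.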

How the results depend on the processing

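No paired analysis was possible because each group is 1 library. Every alternative of a member's ratio in the main macrophages, 350 in each contrast, kept its sign where the member was called, while 67 and 95 moved outside their counting interval. Pooling all macrophages and monocytes, chosen after seeing the data, gave 20 members higher in WT tumour over WT healthy and 22 lower in PPARg-/- tumour over WT tumour. Scaling by the median ratio gave 24 higher and 21 lower.

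Other counts of members called moved by over 1.5 times. The cause was not tested, except that thinning leaves fewer UMIs. At 1000 UMIs per cell the main macrophages had 14 higher (22 as reported) and 1 lower (2) in WT tumour over WT healthy, and 1 higher (2) in PPARg-/- tumour over WT tumour. Nonclassical monocytes then had 0 and 0 (2 and 4) in the first contrast, T cells 1 higher (3) in the first and 2 higher (1) in the second, and AT2 cells 0 and 0 (9 and 1). Thinned macrophages over T cells had 1 lower (2) in WT healthy, and 4 higher (9) and 6 lower (10) in PPARg-/- tumour. Over nonclassical monocytes they had 3 higher (13) and 0 lower (2) in WT healthy, and 3 (8) and 9 (14) in PPARg-/- tumour, and AT2 cells over macrophages had 13 (25) and 1 (5) there.

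A mitochondrial limit of 5%, Leiden resolution 2, clustering each library alone, median scaling and both pooled sets of macrophages each left 1 member lower (2) in main macrophages of WT tumour over WT healthy, Ggps1 being the call lost. The 5% limit also gave 2 lower (4) in nonclassical monocytes, 5 higher (3) and 1 lower (0) in T cells of that contrast, 2 lower (1) in AT2 cells, 1 lower (2) in macrophages over nonclassical monocytes of WT healthy and 2 lower (5) in AT2 cells over PPARg-/- macrophages. Resolution 2 and a minimum of 2000 UMIs gave 1 higher (2) in nonclassical monocytes. Clustering alone gave 2 lower (4) there, and 4 lower (2) in WT healthy macrophages over them, where median scaling gave 6 higher (13). Free RNA taken off left 1 higher (2) in PPARg-/- over WT tumour macrophages. It gave nonclassical monocytes 0 higher (2) in the first contrast, and 3 higher (0) and 0 lower (1) in the second. T cells then had 1 higher (3) and 3 lower (0), and 3 higher (1) and 1 lower (3), and WT tumour macrophages over nonclassical monocytes 1 lower (2). T cells had 0 higher (1) in the second contrast with 2000 UMIs or with doublets kept. Doublets kept gave 8 lower (4) in nonclassical monocytes and 8 lower (2) in WT healthy macrophages over them, and a median r of 0.065 in PPARg-/- macrophages. Pearson residuals of unthinned counts gave median r of 0.26, 0.37 and 0.14, each over 19 enzymes, where the thinned values of 0.14, 0.14 and 0.0020 are over 10, 13 and 3, so the sets differ too.

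Depth limits the classes with few cells: in B cells 9 of the 32 genes had enough UMIs.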
